A study of Homo sapiens with 4 samples.

Results

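Type I keratins are the acidic partners of the keratin intermediate filaments of epithelial cells, and each pairs with a type II keratin to build the filament. Their genes lie side by side on the long arm of chromosome 17, and which of them is used marks the kind of epithelium: KRT14 and KRT15 the basal layer of stratified epithelia, KRT10 the layers above it, KRT9 palms and soles, KRT12 the cornea, KRT13 internal stratified epithelia, KRT16 and KRT17 activated or wounded epidermis, and KRT19 simple epithelia. KRT14 is a classical target of p63, the transcription factor of the basal epidermis, and fibroblasts normally use none of these filaments as their main cytoskeleton. The 10 genes described here are KRT9, KRT10, KRT12, KRT13, KRT14, KRT15, KRT16, KRT17, KRT19 and KRT23. A peak was assigned to them when its summit lay in a gene body or less than 20 kb from any transcription start site (TSS) that GENCODE gives for 1 of them. This gave 23 of the 101142 peaks of the control list and 30 of the 109486 peaks of the p63 list, at 37 places along the chromosome when overlapping peaks were joined.

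Chromatin accessibility was measured by ATAC-seq, where a transposase inserts sequencing adapters into open DNA, in the established human dermal fibroblast line BJ. Both groups carried a doxycycline-controlled transactivator and expressed KLF4, a zinc finger factor of the upper epidermis, from a retroviral construct, either alone (CTR, "empty") or fused through a self-cleaving peptide to ΔNp63α, the main p63 isoform of the epidermis (p63). Both groups were treated with doxycycline to induce expression, a set-up that the paper describes as able to detect early chromatin changes. Each group had 2 replicates, which were separate inductions of the same polyclonal lines, and 1 peak list was deposited per group. The lists therefore hold no spread between replicates, no test between the groups was possible, and the intervals below cover counting error only.

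In each list a peak has a fold enrichment and a −log10 q. The fold enrichment is the pileup at the summit over a local background, with 1 added to each. The pileup, which is the number of reads or fragments lying over the summit, and the background in the same unit were solved from the deposited values. Open regions are the peaks whose −log10 q was at least 10, and such a region is shared when it overlaps an open region of the other list by at least 1 bp and list-only otherwise. The lists were not scaled to each other, and over the 47412 pairs of shared regions the median ratio of the pileups, p63 over CTR, was 1 (central 95% of pairs 0.611 to 1.84). In such bulk data a larger share of open cells and wider opening in each cell cannot be told apart. As a check of the cell type, 8 of 12 fibroblast markers (66.7%) had an open region within 1 kb of the canonical TSS in each list. This is near the 58.6% (CTR) and 58.9% (p63) of all protein-coding genes, and COL1A1, COL3A1, DCN and PDGFRA had none. Of the epithelial markers 2 of 12 (ELF3 and GRHL1) had one in each list, as did 2 of 6 melanocyte and 0 of 6 endothelial markers. Of 6 leukocyte markers CD14 had one in the CTR list alone.

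Most of the accessible chromatin around these keratin genes was present without ΔNp63α. Of the 13 CTR and 18 p63 open regions, 12 in each list were shared. The 6 others of the p63 list were p63-only and lay beside KRT13, KRT19, KRT17 (3 regions) and KRT23. Over the whole p63 list, 23.9% of regions were p63-only. The 1 CTR-only region lay downstream of KRT12, and over the whole CTR list 16.5% of regions were CTR-only. The 3 shared regions around KRT14 had higher pileups and a higher surrounding background in the p63 list. KRT14 itself had only a weak peak at its promoter, in the p63 list alone and over a response element that served as a pulldown bait.

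The sequences on which these statements turn are given first. The p63 family recognises a site of 20 bp made of a pair of 10-bp half-sites, each with a C and a G at fixed places, and it was accepted here with at most 3 mismatches at the other 16 positions and within 100 bp of a summit. By this rule 2 of the 18 p63 regions (11.1%) and 0 of the 13 CTR regions held a site, against 3.78% of all p63 and 0.932% of all CTR regions. Near 26 type II keratin genes 5 of 45 p63 regions (11.1%) held a site, and near 18 other type I keratin genes 1 of 15 (6.67%). The difference between these groups was not tested. Both regions of the 10 genes with a site were p63-only and overlapped no CTR peak at any threshold. Over the whole p63 list, 11.4% of p63-only and 1.39% of shared regions held one. The windows are shown on the plus strand of GRCh38, with the site and any AP-1 word in capitals. The first runs along chr17:41494590-41494790 on the KRT13 side of the cluster and the second along chr17:41621210-41621360 in an intron of KRT17.

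KRT13 side: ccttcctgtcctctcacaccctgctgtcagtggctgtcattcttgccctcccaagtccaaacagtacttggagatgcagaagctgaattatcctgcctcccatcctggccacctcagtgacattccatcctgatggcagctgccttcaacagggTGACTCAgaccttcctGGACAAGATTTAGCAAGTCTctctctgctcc

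KRT17 intron: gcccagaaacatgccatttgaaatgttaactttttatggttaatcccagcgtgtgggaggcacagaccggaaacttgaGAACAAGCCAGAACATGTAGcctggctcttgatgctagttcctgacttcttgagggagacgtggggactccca

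The site on the KRT13 side occupied chr17:41494760-41494779 with 2 mismatches, next to the AP-1 word, and that of the KRT17 intron chr17:41621288-41621307 with 3 mismatches. The response element of KRT14 differs from both, since its best half-site had 2 mismatches and it held no pair of half-sites. As a bait of 30 bp it matched the genome once, upstream of the KRT14 TSS.

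KRT14 (ENSG00000186847.6, chr17:41582279-41586895, minus strand), the keratin of basal keratinocytes, had no open region at its promoter in either list. In the p63 list a peak at 41586973 to 41587133 had its summit 119 bp upstream of the TSS and 2 bp from the response element, with a pileup of 20 (95% Poisson interval 12.2 to 30.9) over a background of 5.41, an enrichment of 3.28-fold and a −log10 q of 4.53. No CTR peak of any height overlapped it. The peak lay far below the threshold, where 10 of the 12 p63 peaks near these genes overlapped no CTR peak. A CTR signal too low to be listed would not be seen.

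The open regions nearest to KRT14 were shared by both lists. That at 41588132 to 41588759, about 1592 bp upstream of the TSS by the p63 summit, had a pileup of 27 in CTR and 44 in p63. Downstream of the gene, the region at 41579535 to 41580045 had pileups of 33 and 58, and that at 41580845 to 41581506 of 25 and 41. All 3 were higher in the p63 list, by 1.63, 1.76 and 1.64 times. The exact 95% interval of the ratio excluded 1 for the region with pileups of 33 and 58 (1.13 to 2.78) and reached just below 1 for the other two (0.987 to 2.74 for the upstream region and 0.974 to 2.81 for the other downstream region). A ratio of 1.5 or more was found in 7.24% of all shared pairs, and these 3 regions were the only ones among the 12 of the keratin genes. In the distribution over all pairs they lay between the 95.5th and the 96.9th percentile.

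The background around these regions differed by as much as their summits did. It was 3.20 to 3.49 in CTR and 5.72 to 6.82 in p63, a ratio of 1.79 to 1.95. Background ratios of 1.5 or more were found in 3.25% of all shared pairs, and these 3 lay between the 98.9th and the 99.3rd percentile of all pairs. Fold enrichments, which divide by this background, hence hardly differed: 5.79 to 8.09 in CTR and 5.37 to 8.77 in p63. The paper names an input control for ChIP-seq only, so the background here can hold reads of the regions themselves. As the 3 regions are also neighbours, their background ratios are not independent observations. The other 9 shared regions had background ratios of 0.769 to 1.32, around a median of 0.960 for all pairs. KRT9 (chr17:41565836-41572059), the palm and sole keratin that lies next to KRT14, had no peak in its gene body, and its nearest open region was the KRT14 region with summits 7651 bp (CTR) and 7652 bp (p63) upstream of its TSS. Closer to KRT9, 4925 bp upstream, the p63 list had a weak peak (pileup 21, −log10 q 5.01) and the CTR list none. The summit window of this weak peak had 3 copies on the short arm of chromosome 17, at 97.0% to 98.0% identity and without a peak in either list. Their part in its pileup was not tested.

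**Figure D1:**
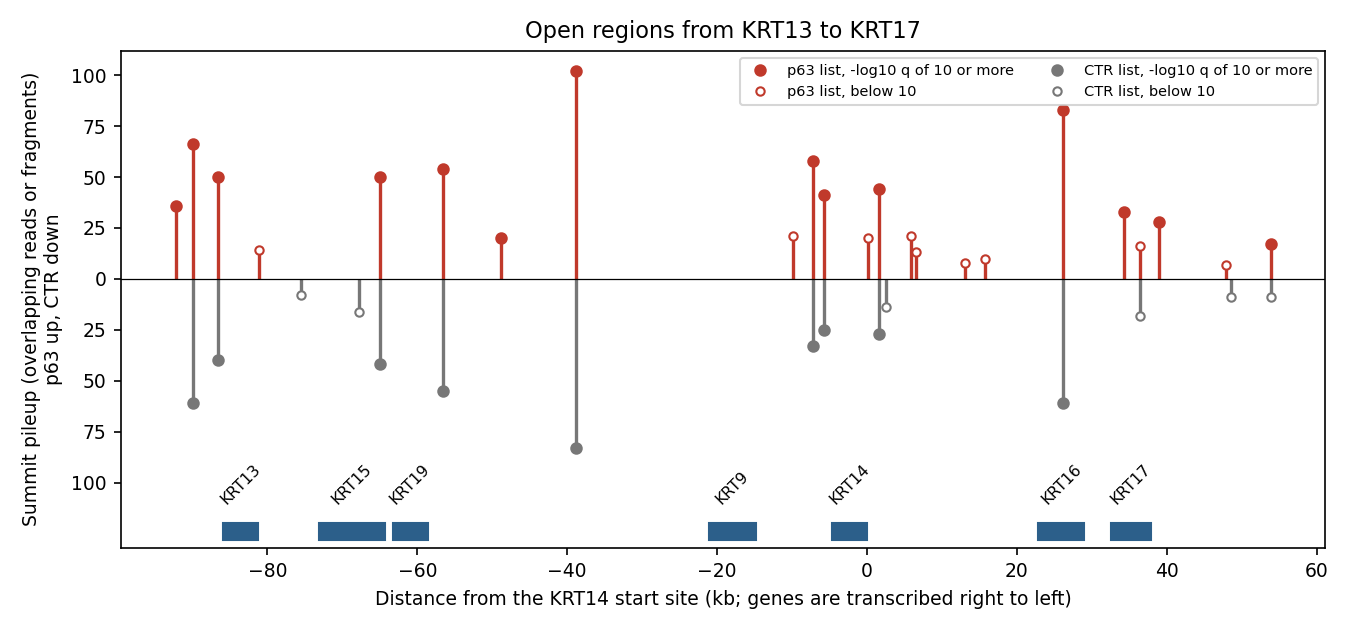
Summit pileup of every peak from KRT13 to KRT17, by distance from the KRT14 TSS in kb, with the p63 list drawn upwards in red and the CTR list downwards in grey, filled where −log10 q was 10 or more and open below it. Blue bars are the gene bodies. The 3 filled p63 stems flanking KRT14 (58, 41 and 44) are longer than their CTR partners (33, 25 and 27), while the open p63 stem at the KRT14 start site (20) has no CTR partner.

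KRT14 has near-identical copies on the short arm of chromosome 17, and so have KRT16 and KRT17. These copies were examined after the values near KRT14 had been seen. The 201-bp window of the KRT14 promoter peak aligned in full to 3 of them at 96.5% to 97.5% identity. The response element was present in all 3, with the half-site unchanged. It had 1 substitution in copies A (chr17:18450033-18450062, plus strand) and B (chr17:20494337-20494366, minus strand) and 2 in copy C (chr17:16822674-16822703, minus strand). All 3 copies had a peak in both lists, each with a higher pileup in the p63 list. At copy A the pileup was 17 in CTR and 42 in p63 (−log10 q 9.40 and 25.5), at copy C it was 10 and 22 (3.63 and 10.7), and at copy B it was 10 and 14 (4.48 and 4.42). The ratio was 2.47 (95% interval 1.38 to 4.63) at copy A, 2.20 (just below 1 to 5.20) at copy C and 1.40 (0.578 to 3.52) at copy B, so it exceeded counting error at copy A. The background was higher in the p63 list as well, at 1.87 in CTR and 4.07 in p63 for copy A, 1.75 and 2.90 for copy C and 1.41 and 2.86 for copy B, and the fold enrichment at copy B was 4.57 in CTR and 3.88 in p63. The p63 pileups of copies A and C were above the 20 at KRT14 itself. The copies of the region 1592 bp upstream of KRT14 gave the same order, with pileups of 21, 27 and 28 in the p63 list, all above the threshold, against a single CTR peak with a pileup of 9. Reads that fit a copy and the gene nearly equally well can be placed at either, and the part of such placement in the values of the KRT14 promoter peak and of the region 1592 bp upstream was not tested. The summit windows of both shared regions downstream of KRT14, with pileup ratios of 1.76 and 1.64, had no copy of 85% identity or more over 150 bp.

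KRT16 and KRT17, the keratins of activated epidermis, lie upstream of KRT14 in the same orientation. KRT16 (chr17:41609778-41615899) was the only 1 of the 10 genes with an open region within 1 kb of its canonical TSS, in both lists, whereas 58.6% (CTR) and 58.9% (p63) of 20033 protein-coding genes had one. Its promoter region at 41612690 to 41613388 had a pileup of 61 (46.7 to 78.4) in CTR and 83 (66.1 to 103) in p63 and a −log10 q of 46.2 and 66.4, the second highest near these genes. The ratio was 1.36 (0.966 to 1.93), at the 88.2nd percentile of all pairs. An AP-1 word and no p63 site lay within 100 bp of its summit in either list.

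KRT17 (chr17:41619442-41624842) had 3 of the 6 p63-only regions, and no CTR open region closer than that of KRT16. The region in its intron, at 41621021 to 41621478, reached a pileup of 33 (22.7 to 46.3) at a fold enrichment of 6.97. Its summit lay 3315 bp downstream of the canonical TSS and 59 bp from the TSS of a shorter KRT17 transcript. A second region, at 41625749 to 41626000 in intergenic sequence 1249 bp upstream of the canonical TSS, had a pileup of 28 (18.6 to 40.5) and a −log10 q of 13.2, with no p63 site, AP-1 or KLF word in its window. No CTR peak overlapped either region at any threshold. The third, at 41640632 to 41640864 and 16191 bp upstream near the pseudogene KRT42P, had a pileup of 17 in p63 and 9 in CTR, where the −log10 q was 12.0 and 4.27. It held an AP-1 word and a p63 site with 4 mismatches, 1 more than the rule allowed. Between the first and second regions, a peak of KRT17 at 41623063 to 41623552 had pileups of 18 in CTR and 16 in p63, a ratio of 0.889 (0.424 to 1.85) inside counting error. Its background was 2.43 in CTR and 3.90 in p63, and its −log10 q of 8.52 and 4.11 was below the threshold in both.

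The windows of KRT16 and KRT17 have copies too. At the intronic KRT17 region 4 copies in KRT17 pseudogenes were 91.6% to 95.5% identical, and a pair of them had weak peaks in the p63 list (pileups 7 and 9) and none in the CTR list. The p63-only region upstream of KRT17 had 4 copies of 89.6% to 92.3% identity, without a peak in either list. One of 3 copies of the KRT16 window, at chr17:16832967-16833166, had a pileup of 11 in CTR and 21 in p63. Their part in the values at the genes was not tested. The third p63-only region of KRT17, like the windows near KRT10, KRT13, KRT15 and KRT19, had no copy of 85% identity or more over 150 bp.

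KRT13, KRT15 and KRT19 form the neighbouring group towards the other end. The strongest region near any of the 10 genes lay here, at 41547776 to 41548393, 19817 bp upstream of KRT19 by its CTR summit and 6370 bp from the noncoding gene LINC00974, with pileups of 83 in CTR and 102 in p63 and a −log10 q of 57.9 and 72.9. Its ratio of 1.23 (0.911 to 1.66) did not exceed counting error. It held an AP-1 word, in capitals in the window chr17:41548025-41548175.

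KRT19 distal: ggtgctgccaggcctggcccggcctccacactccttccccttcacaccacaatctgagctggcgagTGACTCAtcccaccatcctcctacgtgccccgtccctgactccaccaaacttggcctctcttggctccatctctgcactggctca

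KRT19 (chr17:41523617-41528308), a keratin of simple epithelia, had its nearest open region 2046 bp upstream in CTR, with an AP-1 word, and the pileups of 55 and 54 were nearly equal. A p63-only region at 41537988 to 41538347, in intergenic sequence 9792 bp upstream, had a pileup of 20 (12.2 to 30.9), a −log10 q of 14.4 and no CTR peak. Neither a p63 site nor an AP-1 or KLF word was found in its window.

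KRT15 (chr17:41513745-41522529), a basal layer and hair bulge keratin, had a shared region at 41521502 to 41522198, 26 bp (CTR summit) and 78 bp (p63 summit) from the TSS of longer KRT15 transcripts. The pileups were 42 and 50, a ratio of 1.19 (0.774 to 1.84). At its canonical TSS, 287 bp upstream, only a weak CTR peak was listed (pileup 16, −log10 q 4.89). KRT13 (chr17:41500981-41505705) had a weak peak at its promoter in the p63 list alone, at 41505635 to 41505883 and 57 bp from a TSS (pileup 14, −log10 q 7.98). Both promoter peaks lay below the threshold. There 7 of 10 CTR and 10 of 12 p63 peaks near these genes overlapped no peak of the other list. The share over all such peaks is not given here. Downstream of KRT13, the shared regions at 41496813 to 41497223 (pileups 61 and 66) and at 41499956 to 41500540 (pileups 40 and 50) had ratios of 1.08 and 1.25, inside counting error. The p63-only region on this side, at 41494513 to 41494924, was the highest of the 6, with a pileup of 36 (25.2 to 49.8), 6.99-fold enrichment and a −log10 q of 19.0. Its summit was 10922 bp downstream of the canonical KRT13 TSS and closer, at 2144 bp, to KRT36, a hair keratin outside the 10 genes.

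**Figure D2:**
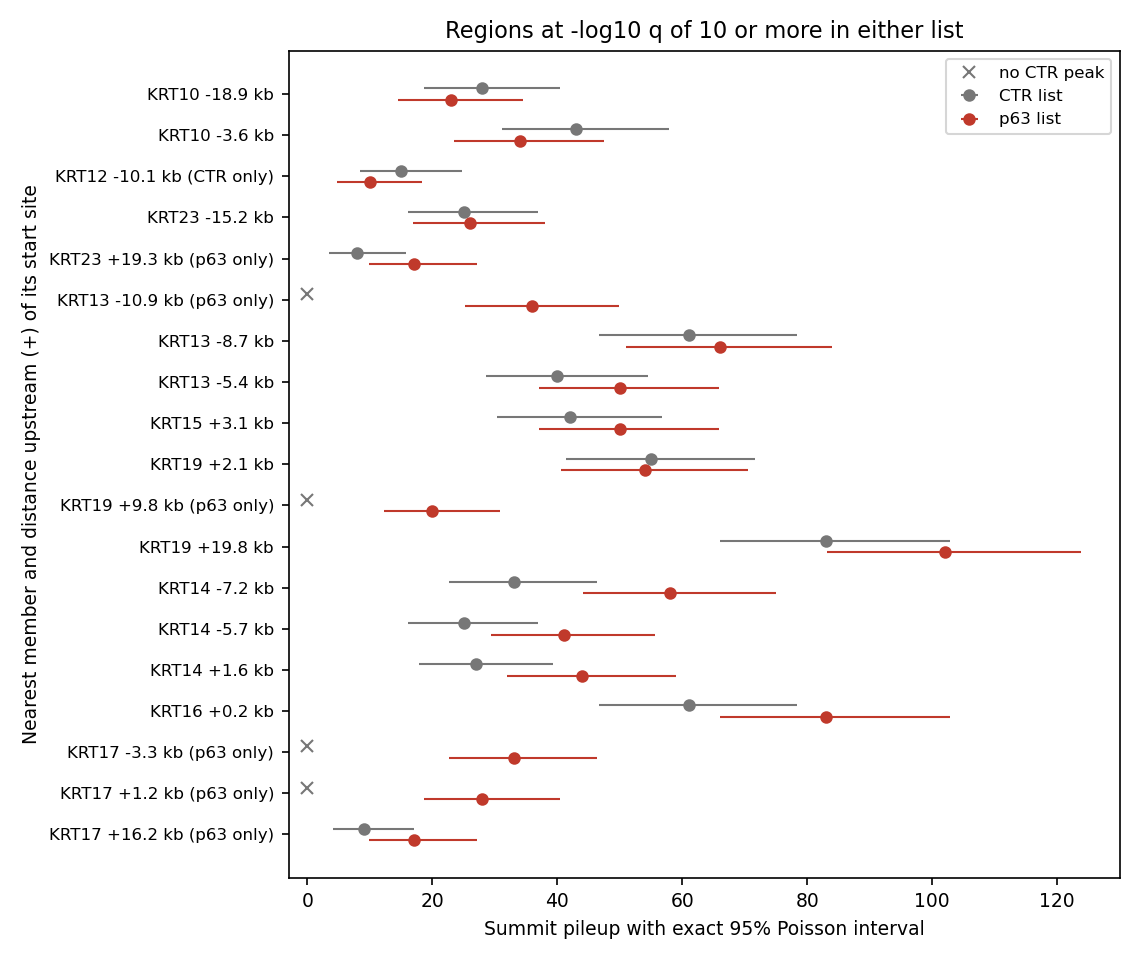
Summit pileup with exact 95% Poisson intervals at the 19 places with an open region in at least 1 list, in chromosomal order, with CTR in grey and p63 in red. Each place is named by its nearest gene and the distance of its summit upstream (+) or downstream (−) of that gene's canonical TSS in kb, and crosses mark places without any CTR peak. The 4 crosses stand against p63 pileups of 36, 20, 33 and 28.

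KRT10, KRT12 and KRT23 lie apart from the others, nearer to the centromere. KRT10 (chr17:40818117-40822614), the keratin of suprabasal epidermis, had a shared region over its exon 7, at 40818744 to 40819198, with pileups of 43 in CTR and 34 in p63. The summits were 107 bp and 104 bp from the start of the antisense gene KRT10-AS1, 3620 bp and 3617 bp downstream of the KRT10 TSS, and the window was 80.6% GC in CTR, against a median of 57.7% over the CTR regions of the 10 genes. The other KRT10 region, at 40803655 to 40803817, lay 6 bp (CTR) and 52 bp (p63) from the start of ENSG00000264488 and had pileups of 28 and 23. Both were lower in the p63 list, with ratios of 0.791 (0.489 to 1.27) and 0.821 (0.452 to 1.48) that included 1.

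KRT12 (chr17:40861303-40867223), the corneal keratin, had the single CTR-only region, at 40857103 to 40857380 and 10013 bp downstream of its canonical TSS, in an intron of ENSG00000265359, with a pileup of 15 and a −log10 q of 10.3, just past the threshold. The overlapping p63 peak had a pileup of 10 and a −log10 q of 5.40, and the ratio of 0.667 (0.268 to 1.59) did not exceed counting error. KRT23 (chr17:40922700-40937646) had a shared region downstream, at 40922282 to 40922703, with pileups of 25 and 26 and an AP-1 word. Its p63-only region at 40956668 to 40957125, 19309 bp upstream of the TSS in an intron of ENSG00000234477, had a pileup of 17 against 8 in CTR and a −log10 q of 12.2 against 3.39, a ratio of 2.13 (0.869 to 5.69). A p63 site with 3 mismatches lay in this peak at chr17:40956780-40956799, 166 bp from the summit and so outside the 100 bp of the rule.

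Reads of KRT12 and KRT23 could also map to an alternate sequence of the reference that repeats chr17:40850733-41128408 at 99.7% identity. The lists held 4 CTR and 3 p63 peaks on its stretches within reach of these genes. At the copy of the KRT12 region the CTR list had a pileup of 10 and the p63 list no peak. At that of the shared KRT23 region the pileups were 21 in CTR and 18 in p63, and at that of the p63-only KRT23 region 10 and 14. The order of the groups was that of chromosome 17 for the KRT12 region and the p63-only KRT23 region, and reversed for the shared KRT23 region. The 201-bp summit windows of these regions were 100% identical on both sequences, so reads there cannot be assigned by sequence. An equal order is therefore not an independent observation. A further KRT12 place, without a peak on chromosome 17, had a pileup of 14 in CTR and 9 in p63. How far the division of reads set the list-only calls here was not tested.

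**Figure D3:**
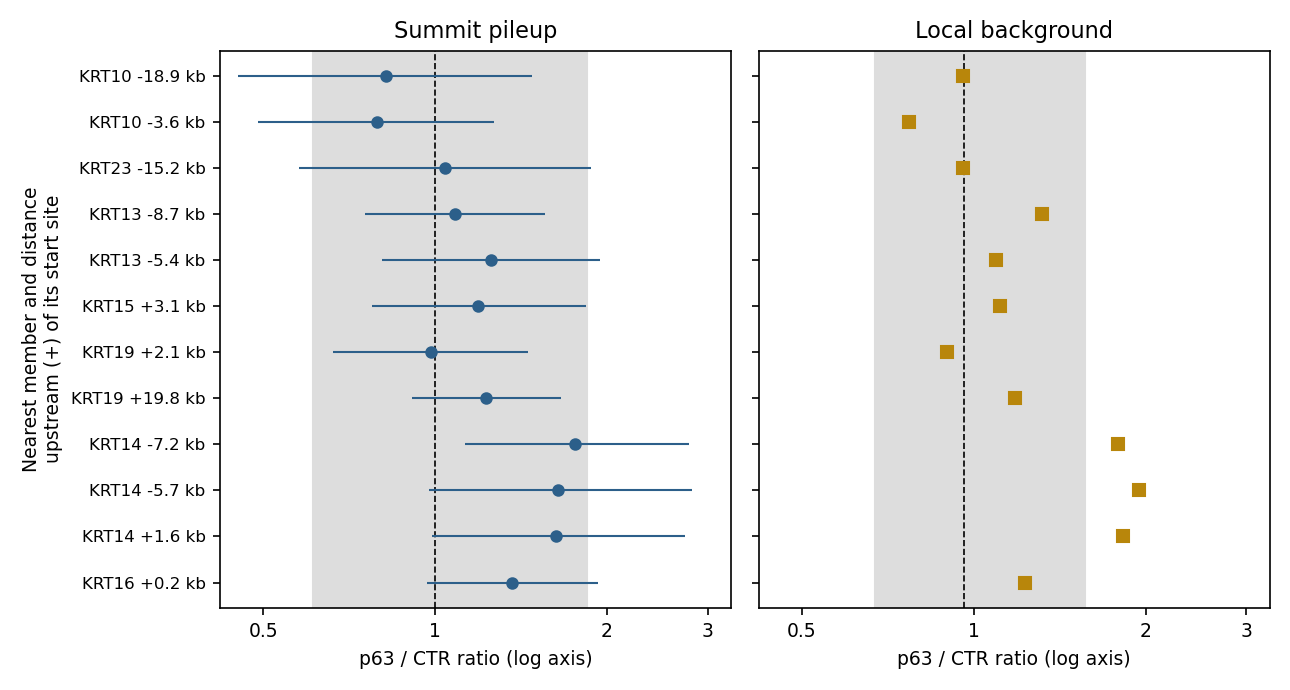
Ratio of p63 to CTR at the 12 shared regions on a log axis, for the summit pileup (left, with exact 95% intervals of the ratio) and the local background (right, without an interval), named as in the plot of pileups. Grey bands hold the central 95% of all 47412 shared pairs (0.611 to 1.84 and 0.670 to 1.57) and dashed lines mark their medians (1 and 0.960). The 3 KRT14 regions lie at 1.63 to 1.76 on the left and, beyond the band, at 1.79 to 1.95 on the right.

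Read over all 10 genes, the pileup was higher in the p63 list at 9 of the 12 shared regions and lower at 3, with a median ratio of 1.21, and the interval excluded 1 at 1 of them. The 6 p63-only regions made up 33.3% of the 18 p63 regions (95% Wilson interval 16.3% to 56.3%), against 23.9% of all p63 regions, so the interval held the value of the whole list. The 4 without any CTR peak made up 22.2%, against 12.0% in the whole list. The 1 CTR-only region was 7.69% of the 13 CTR regions (1.37% to 33.3%), against 16.5% in the whole list, and 0 lacked any p63 peak, against 3.29%. The list-only regions of KRT12 and KRT23 are counted here although their summit windows have an identical copy on the alternate sequence. Its part in these calls was not tested. Near 18 other type I keratin genes, chosen as a comparison, 6 of 15 p63 regions were p63-only (40%, 19.8% to 64.3%), and near 26 type II keratin genes, the partners in the filament, 19 of 45 (42.2%, 29.0% to 56.7%). The intervals of the 3 groups overlapped widely, and the difference between them was not tested.

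**Figure D4:**
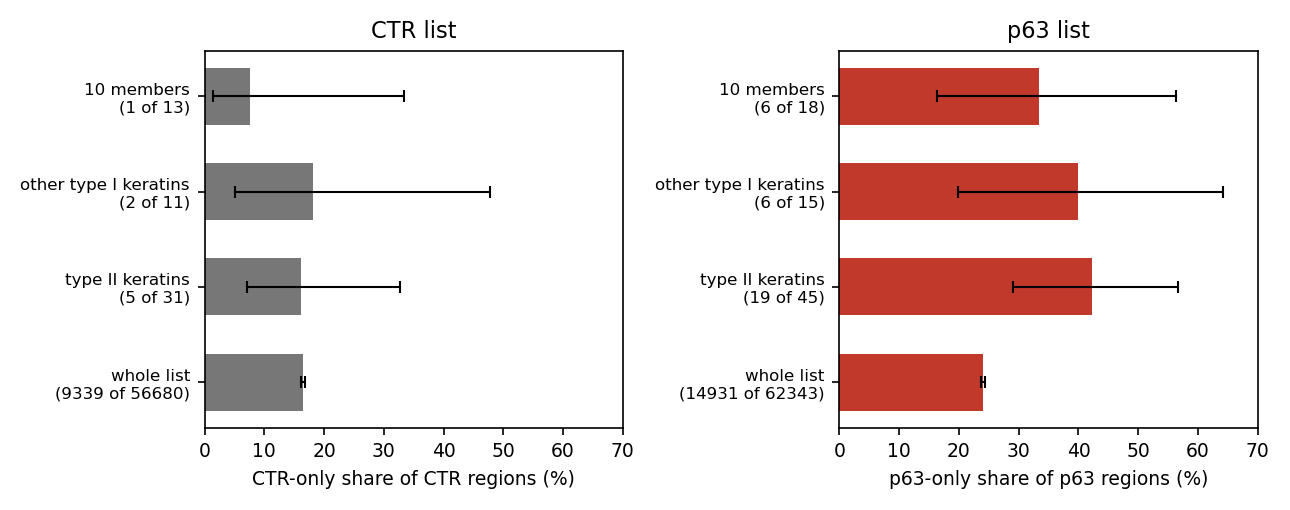
Share of list-only regions in the CTR list (left) and the p63 list (right) near the 10 keratin genes, near other type I and type II keratin genes and in the whole list, in percent with 95% Wilson intervals. For the 10 genes the shares are 7.69% and 33.3%, and their intervals include the 16.5% and 23.9% of the whole lists.

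The p63-only regions had p63 pileups of 17 to 36 and the shared ones of 23 to 102, where sharing required a peak past the threshold in both lists. AP-1 words, TGACTCA or its reverse complement TGAGTCA, were found within 100 bp of the summit in 6 of 13 CTR regions (46.2%) and 7 of 18 p63 regions (38.9%), against 26.9% and 25.4% of all regions. Of the p63-only regions 2 held one, and of the shared p63 regions 5. KLF words, GGGCGGGGC, GGGCGTGGC, GGGTGGGGC or GGGTGTGGC on either strand, were found in 3 CTR (23.1%) and 3 p63 regions (16.7%), against 7.40% and 7.14%, and none of the p63-only regions held one. A KLF word in the shared region upstream of KRT14, where both groups expressed KLF4, is in capitals in the window chr17:41588387-41588587 around the p63 summit.

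KRT14 upstream: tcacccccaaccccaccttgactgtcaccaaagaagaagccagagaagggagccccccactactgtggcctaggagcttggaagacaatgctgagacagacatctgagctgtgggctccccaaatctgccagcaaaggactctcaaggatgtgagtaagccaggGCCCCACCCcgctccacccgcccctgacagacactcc

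The peaks below the threshold, 10 in the CTR and 12 in the p63 list, had pileups of 6 to 18 and 7 to 21, and none held a p63 site by the rule. Of these, 7 CTR and 10 p63 peaks overlapped no peak of the other list. The share over all peaks below the threshold is not given here, so these counts only describe the peaks near these genes.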

How the data were processed

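ATAC-seq peaks of 4 samples in 2 groups were analysed, as 1 list per group. The authors mapped reads to hg38 with Bowtie2 2.3.4.3 and called peaks from both replicates of a group with MACS2, whose version and options are not given in the sources used here. The deposited lists give a display score, a fold enrichment (a ratio), a −log10 p and a −log10 q per peak, and no total reads, so the depth is unknown. The score was not used. Pileup and background were solved from the deposited fold enrichment and −log10 p under the Poisson model of MACS2, for 99.98% of peaks within 0.001.

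The 10 genes, the comparison lists and the rules (a −log10 q of 10, 20 kb around GENCODE release 44 TSSs) were chosen with earlier results of these data known. Named are every list-only region, every region with a p63 site, the region nearest each canonical TSS and the highest of each list. Marker lists served to check the cell type. Coordinates are 1-based. Sequences were read with pysam 0.24.0. Copies of 201-bp summit windows were sought with blastn 2.17.0, and the alternate sequence was aligned with minimap2. Poisson, Wilson (statsmodels 0.14.6) and ratio (exact binomial, scipy 1.17.1) intervals are at 95%. The solver and overlaps were tested on simulated data. No test between groups was made. The sequences of some promoter windows are not reported here.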

Additional observations from a re-analysis of the deposited data

Results flagged for a closer look

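Outside the peaks of chromosome 17, the p63 list had a peak on the alternate sequence at the copy of the p63-only KRT23 region, with a summit pileup of 14 against 10 in the CTR list. It was noted because the comparison did not use alternate sequences, and only places higher in the p63 list were flagged there. Its summit window is identical to that of the chromosome 17 region, so it is not separate evidence. The other places near KRT12 and KRT23 on this sequence had lower p63 pileups (9 against 14 and 18 against 21) or no p63 peak. The difference at the flagged place was not tested.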

How the results depend on the processing

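The counts near the 10 keratin genes were recomputed under other settings, and of 46 values 28 moved by at most 1.5 times or, for the p63-only share, stayed inside its interval, while 18 moved further. Without a threshold, the lists gave 23 (CTR) and 30 (p63) regions, and 7 and 14 of these were list-only. The whole-list shares without a threshold are not given here for comparison. At a −log10 q of 20 or more, 11 p63 regions were left, of which 2 were p63-only and 0 held a p63 site, and 0 regions were CTR-only. These 2 were KRT14 regions shared at the threshold of 10, whose CTR peaks had a −log10 q of 19.998 and 13.9. None of the 6 regions that were p63-only at the threshold of 10 was left, since their highest −log10 q was 19.0. With 5 kb around a TSS in place of 20 kb the p63 regions numbered 11, of which 2 were p63-only and 1 held a site, and 0 were CTR-only, and with 50 kb there were 21 CTR, 30 p63 and 10 p63-only regions. When list-only meant absent at any threshold, 0 CTR-only regions remained. With at most 2 mismatches, or within 50 bp of the summit, 1 p63 region held a site. Equal list lengths, canonical TSSs alone and an overlap of 50% gave the same counts. No paired analysis was possible because the lists pool the replicates, and for the same reason no replicate could be left out. With no value per replicate, a difference between the lists cannot be told apart from spread between inductions. The smallest pileup called at the threshold was 15 in either list, so a list-only region can have a partner below the threshold. Where no peak was listed at any threshold, a signal too low to be listed would not be seen.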
